A study of Mus musculus with 9 samples.

Results

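Glucocorticoid signalling was described here through 9 genes: the glucocorticoid receptor Nr3c1, the mineralocorticoid receptor Nr3c2, and 7 genes that glucocorticoids induce in many tissues, namely Fkbp5, Sgk1, Tsc22d3, Dusp1, Zbtb16, Klf9 and Errfi1. They were taken by symbol from a table of 18956 gene symbols, and all 9 were present and passed the filter on low counts. The table came from bulk RNA sequencing of BALB/c mouse brain tissue labelled as the anterior paraventricular nucleus of the thalamus, a midline thalamic nucleus. There were 3 groups of 3 libraries: mice exposed to 5 days of social defeat (smSDS) and treated with (2S,6S)-HNK (hydroxynorketamine, which the body makes out of ketamine; the SHNK group), mice exposed to the same defeat and given saline (stressed saline), and mice that were not defeated and were given saline (non-stressed saline). Defeat and SHNK were not separated by a non-stressed SHNK group among these libraries. The labels used here give no age, sex, dose, route or timing. They do not tie the libraries to individual mice, so the tests below measure spread among libraries, which may be technical.

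Both receptors are transcription factors held in the cytoplasm by chaperones until corticosterone, the main glucocorticoid of rodents, binds them. The mineralocorticoid receptor binds the hormone more tightly and is abundant in the hippocampus, whereas the glucocorticoid receptor is found in most brain cells and is filled mainly at the daily peak and under stress. The activated receptor binds glucocorticoid response elements (GREs) near its targets. Several of these targets restrain further signalling: Fkbp5 encodes a co-chaperone that lowers the receptor's affinity for hormone, Tsc22d3 encodes GILZ, which opposes inflammatory signalling, Dusp1 encodes a phosphatase that switches off MAP kinases, and Errfi1 encodes an inhibitor of the EGF receptor. Sgk1 encodes a serum- and glucocorticoid-regulated kinase, and Zbtb16 and Klf9 encode transcription factors.

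The sequences just before annotated starts of the 3 response genes that differed most between the groups are shown, with matches to known elements marked. They are RefSeq promoter windows of GRCm38.p6, kept up to the point where a GENCODE exon begins, and read 5′ to 3′ on the gene's strand. Capitals mark the full palindromic GRE (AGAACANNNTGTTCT), its single hexamer (AGAACA on either strand) and the cyclic AMP response element, or CRE (TGACGTCA). Sgk1 had 6 such windows, Tsc22d3 had 3 and Dusp1 had 1. Shown are the Sgk1 window that held the full GRE and the Tsc22d3 window that held the hexamer.
Sgk1: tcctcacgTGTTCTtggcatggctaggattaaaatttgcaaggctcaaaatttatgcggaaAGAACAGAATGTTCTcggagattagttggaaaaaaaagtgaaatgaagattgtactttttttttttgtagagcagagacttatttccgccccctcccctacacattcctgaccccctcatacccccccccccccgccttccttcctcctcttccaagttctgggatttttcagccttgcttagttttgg
Dusp1: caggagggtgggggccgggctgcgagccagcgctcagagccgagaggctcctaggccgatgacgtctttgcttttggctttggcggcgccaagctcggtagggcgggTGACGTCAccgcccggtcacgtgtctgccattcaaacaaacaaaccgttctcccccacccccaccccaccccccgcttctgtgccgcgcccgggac
Tsc22d3: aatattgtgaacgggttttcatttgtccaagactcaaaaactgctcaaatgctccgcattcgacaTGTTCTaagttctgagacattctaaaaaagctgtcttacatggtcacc

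The Sgk1 stretch lies at chr10:21993640-21993889 on the plus strand, overlapped by the introns of 5 longer Sgk1 transcripts and by no exon. Its full GRE occupies chr10:21993701-21993715, from 189 to 175 bases before this start and 951 bases before the next annotated Sgk1 start. The Dusp1 stretch is chr17:26508520-26508722 and the Tsc22d3 stretch chrX:140600660-140600772, both on the minus strand; they end 48 and 138 bases before their RefSeq starts. Of the 9 members, 7 had at least 1 such window (250 bases before a start to 50 after it), 15 windows in all. With both strands searched, the full GRE was in 1 of the 15 windows, that of Sgk1, and in 3 of all 32851 windows (0.00913%). The hexamer, which also occurs inside the full GRE, was in 4 of the 15, in Sgk1 and Tsc22d3, against 19.0% of all windows. The CRE was in 2 of the 15, in Dusp1 and Errfi1, against 1.79% of all windows; it was searched for after the sequences had been seen. These are matches of letters: no binding was measured, and the starts in use in this tissue were not determined.

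The 9 transcripts spanned a wide range of levels, compared here as CPM (the read count of a gene scaled to a common library total) per kilobase of the longest protein-coding GENCODE transcript. In SHNK libraries the level was 112 for Tsc22d3, 41.7 for Klf9, 34.2 for Dusp1, 29.6 for Sgk1, 21.8 for Nr3c1, 11.2 for Errfi1, 2.95 for Fkbp5, 0.867 for Nr3c2 and 0.358 for Zbtb16. In non-stressed saline libraries the order was the same, with 97.8 for Tsc22d3, 19.6 for Nr3c1 and 0.947 for Nr3c2, so the glucocorticoid receptor was far above the mineralocorticoid receptor in all 3 groups. In stressed saline libraries the mean of Sgk1 (21.8, range 20.5 to 22.6) stood slightly above that of Dusp1 (20.9, range 18.4 to 23.3). The ranges of these 2 genes overlapped in all 3 groups, so their order was not resolved. In SHNK libraries Sgk1 ran from 28.7 to 30.1 and Dusp1 from 25.8 to 39.1. In non-stressed saline libraries Sgk1 ran from 25.6 to 30.4 and Dusp1 from 29.8 to 35.4. Fkbp5, Nr3c2 and Zbtb16 were the 3 least abundant.

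**Figure D1:**
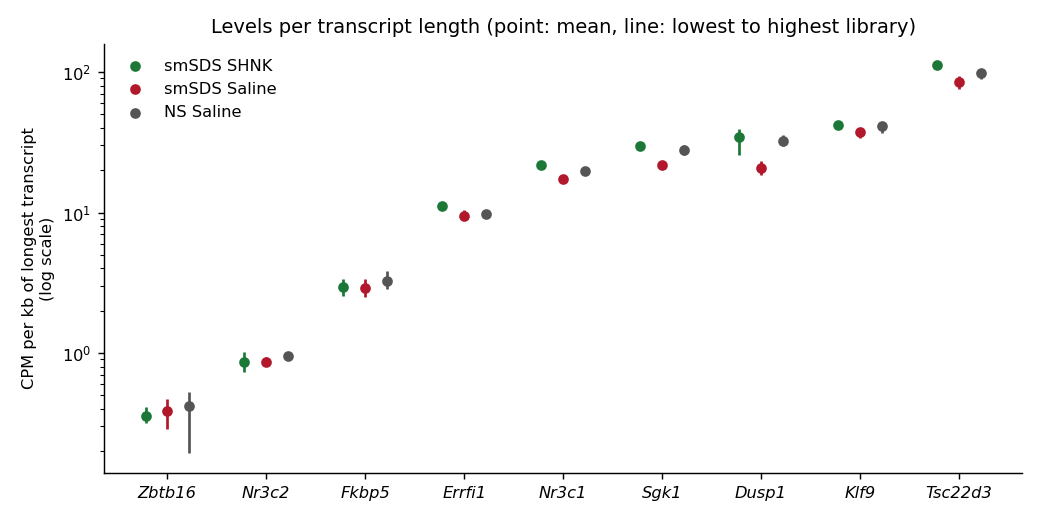
Level of each member on a log scale, as CPM per kilobase of the longest protein-coding transcript, in SHNK, stressed saline and non-stressed saline libraries (point, mean of 3 libraries; line, lowest to highest library). Tsc22d3 was highest and Zbtb16 lowest in every group, and Nr3c1 lay above Nr3c2 throughout.

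SHNK against stressed saline asks what the ketamine metabolite was associated with in defeated mice. The glucocorticoid receptor and 3 of the 7 response genes, Sgk1, Tsc22d3 and Dusp1, rose in the SHNK libraries, while Fkbp5, Zbtb16 and the mineralocorticoid receptor differed by less than the spread between libraries. In total 4 of the 9 members rose and 0 fell, at an adjusted p under 0.05 in edgeR's quasi-likelihood test over 18194 genes, where 2.45% of all genes were called higher (and 6.41% called in either direction). The median log2 fold change was 0.25 over the 9 members and -0.0091 over all tested genes. The SHNK libraries lay wholly above the stressed saline libraries for 6 of the 9, against 14.4% of all genes.

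Nr3c1 reached 142, 137 and 139 CPM in SHNK libraries, against 116, 107 and 111 CPM in stressed saline libraries. Every SHNK library was above every stressed saline library. On the log2 scale the difference was 0.32 ± 0.072 (standard error; adjusted p = 0.0195), a 1.25-fold higher level. Nr3c2 had 6.01, 5.07 and 4.32 CPM in SHNK libraries and 5.54, 4.90 and 4.84 CPM in stressed saline libraries. These groups overlapped, and the 95% interval of the log2 difference ran from -0.34 to 0.36 (adjusted p = 0.974).

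Sgk1 had 93.1, 92.7 and 88.9 CPM in SHNK libraries, against 70.0, 68.9 and 63.4 CPM in stressed saline libraries. The groups were well apart, with little spread within either. Its log2 fold change was 0.44 ± 0.085 (adjusted p = 0.0105). Dusp1 had 77.9, 74.6 and 51.4 CPM in SHNK libraries, against 41.6, 46.3 and 36.7 CPM in stressed saline libraries. SHNK replicate 3 lay well below the other SHNK libraries but still above all stressed saline libraries. The log2 fold change of Dusp1, 0.71 ± 0.14 (adjusted p = 0.0118), was the largest among the 9. Tsc22d3 had 221, 227 and 217 CPM in SHNK libraries, against 186, 149 and 168 CPM in stressed saline libraries, with a log2 fold change of 0.40 ± 0.091 (adjusted p = 0.0204). Here the spread lay mostly within the stressed saline group.

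Of the other response genes, Errfi1 had 35, 32.9 and 34.7 CPM in SHNK libraries, against 32.1, 27.0 and 27.3 CPM in stressed saline libraries. The groups did not overlap, but the log2 difference of 0.25 ± 0.095 missed the threshold (adjusted p = 0.133). Klf9 averaged 187 ± 10.4 CPM in SHNK and 169 ± 14 CPM in stressed saline libraries (SD, n = 3 each), with a log2 interval from -0.05 to 0.34. Its groups did not overlap either, but it missed the threshold (edgeR adjusted p = 0.355). Fkbp5 averaged 11.4 ± 1.54 CPM in SHNK and 11.1 ± 1.67 CPM in stressed saline libraries (SD, n = 3 each), with a log2 interval from -0.29 to 0.37. Zbtb16, near 2 CPM and the most variable member, had a log2 interval from -0.83 to 0.61, so differences inside that range remained compatible with the data.

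**Figure D2:**
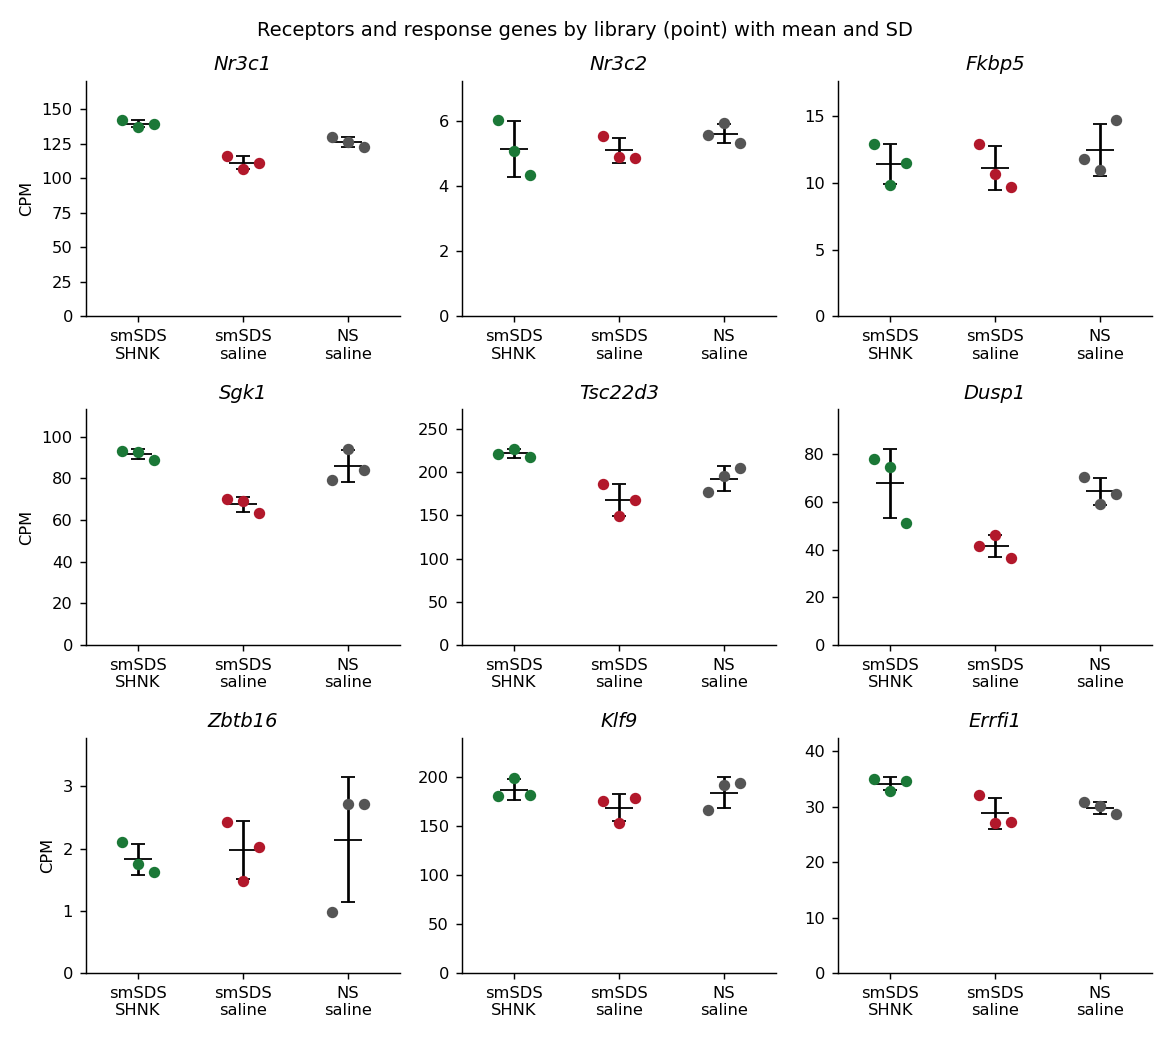
CPM of each member in every library, on linear axes from 0, for SHNK, stressed saline and non-stressed saline (points, libraries in replicate order; bar and whiskers, mean and SD of 3). Nr3c1, Sgk1, Tsc22d3, Dusp1, Klf9 and Errfi1 had all SHNK libraries above all stressed saline libraries. For Nr3c1, Sgk1, Tsc22d3 and Dusp1, non-stressed saline lay between or near SHNK. Nr3c2, Fkbp5 and Zbtb16 overlapped across the groups.

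Each of these 4 calls was lost when some single libraries were left out. Sgk1 and Dusp1 passed in 8 of 9 such fits, both missing it without SHNK replicate 2 (adjusted p = 0.0573 and 0.0627). Nr3c1 and Tsc22d3 passed in 5 of 9. They missed it without SHNK replicate 2 or 3 or stressed saline replicate 2 or 3, with adjusted p up to 0.088 for Nr3c1 and 0.0951 for Tsc22d3. The count of members called was thus 0 without SHNK replicate 2, and 2 (Sgk1 and Dusp1) without SHNK replicate 3, stressed saline replicate 2 or stressed saline replicate 3, and the log2 fold changes of the 4 stayed positive in all 9 fits.

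Marker transcripts of neighbouring tissues and other cell types differed between the same groups. Markers of the habenula, which borders the paraventricular thalamus, were much lower in SHNK: 13 of 15 were measured, 12 fell and 0 rose, and their mean log2 CPM ran from 1.15 to 1.83 in SHNK and from 4.43 to 6.05 in stressed saline libraries. Their summed level, led by Calb2, which also marks the paraventricular thalamus, ran from 1740 to 2110 CPM in SHNK and from 1950 to 3030 CPM in stressed saline libraries. Markers of other thalamic nuclei, led by Slc17a6, which is also on the paraventricular thalamus list, moved in the direction of the members. Of 15, 9 rose and 0 fell, and the summed level ran from 3860 to 4220 CPM in SHNK and from 3170 to 3250 CPM in stressed saline libraries. Of 16 astrocyte markers 9 fell, with summed levels of 4810 to 5130 CPM in SHNK and 5530 to 7030 CPM in stressed saline libraries. Of 5 red cell markers measured of 7, 4 rose, with summed levels of 586 to 676 CPM in SHNK and 372 to 516 CPM in stressed saline libraries. No measured marker was at 0 in any library, and in bulk tissue fewer cells of a type and less RNA per cell cannot be told apart. With the habenula marker mean as a covariate, whose ranges in the 3 groups did not overlap, 0 members were called (adjusted p = 1 for each of these 4), and the covariate and the group can hardly be told apart. The SHNK log2 fold change was then 0.41 for Sgk1 and 1.11 for Dusp1, but 0.11 for Nr3c1 and 0.15 for Tsc22d3. Of 16 ependymal and ciliary markers 8 fell, of 13 choroid plexus markers 3 fell, of 11 hippocampal markers 5 fell and of 16 vessel markers 1 fell, while 0 of 18 oligodendrocyte and 0 of 14 microglia markers were called in edgeR (4 and 1 at unadjusted p under 0.05). The part of these lists in the results was not tested.

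**Figure D3:**
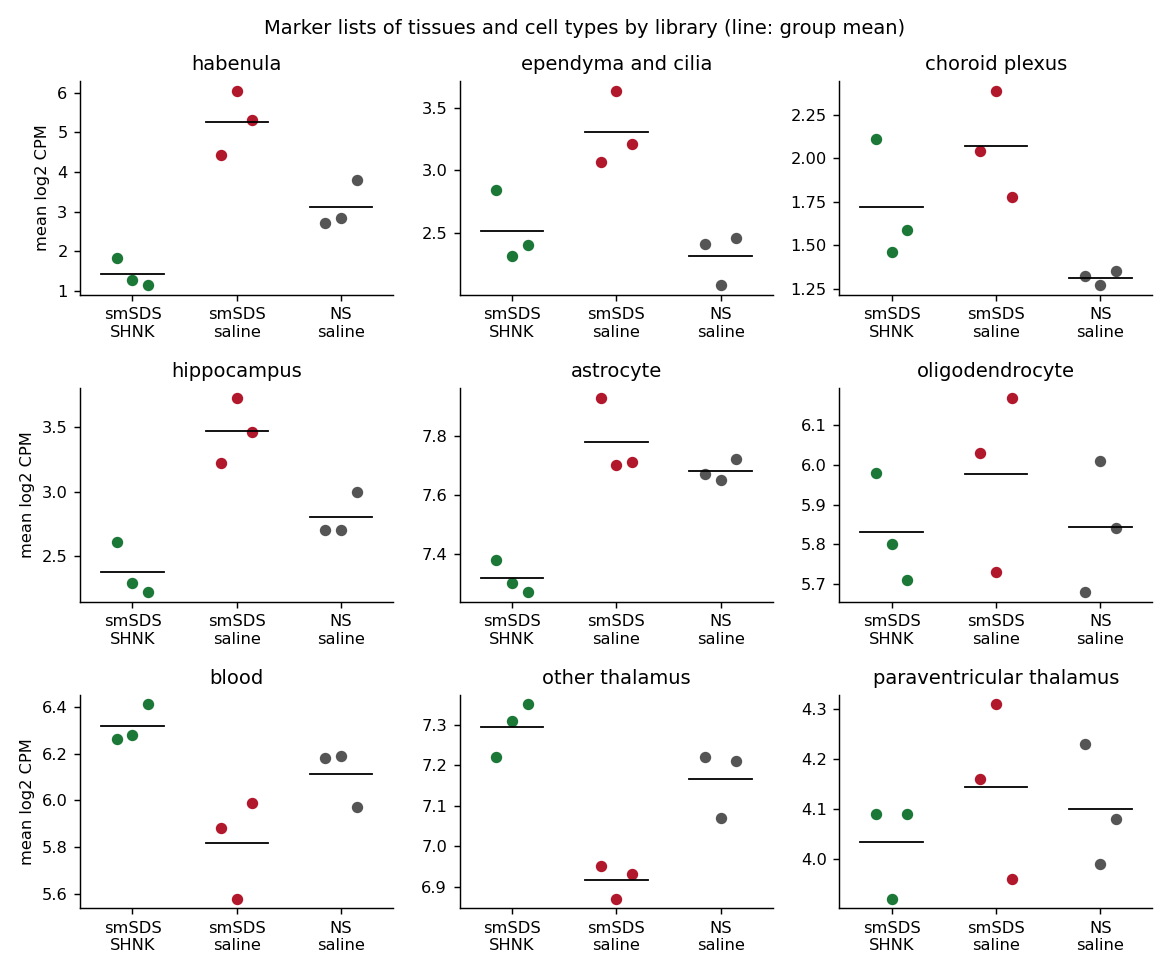
Mean log2 CPM of 9 marker lists in every library of SHNK, stressed saline and non-stressed saline (points, libraries; line, group mean; axes do not start at 0). Habenula, hippocampus and astrocyte markers were lowest in SHNK and other thalamic markers lowest in stressed saline, while paraventricular thalamus markers overlapped across the groups.

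The label of the tissue was set beside 12 genes of paraventricular thalamic neurons. Their presence in bulk tissue cannot test the label. All 12 were present, led by Calb2 (1840 CPM in SHNK) and Slc17a6 (667 CPM in SHNK), with Drd3 lowest (0.422 CPM in SHNK). Calb2 is also on the habenula list and Slc17a6 on that of other thalamic markers. Of the 12, 1, Npffr1 (named after its values were seen), was lower in SHNK than in stressed saline, where the list median log2 fold change was -0.25. The 12 had summed levels of 2550 to 2900 CPM in SHNK, 2460 to 3080 CPM in stressed saline and 2690 to 3080 CPM in non-stressed saline libraries. The libraries held 32307869 to 51569143 counts each, and the members with the fewest counts were Zbtb16, with 45 to 114 per library, and Nr3c2, with 159 to 286, so counting error weighs most on these.

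Stressed saline against non-stressed saline asks what social defeat did to the same genes. All 9 log2 fold changes were below 0, from -0.63 to -0.05, but Dusp1 was the 1 member that passed, where 0.0165% of all genes were called lower and 1.17% in either direction. Over the members the median log2 fold change was -0.16, against -0.017 over all tested genes. Stressed saline libraries lay wholly below non-stressed saline libraries for 3 members, Nr3c1, Sgk1 and Dusp1, against 5.53% of all genes.

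Dusp1 fell to 41.6, 46.3 and 36.7 CPM in stressed saline libraries, against 70.5, 59.4 and 63.6 CPM in non-stressed saline libraries. The groups were clearly apart (log2 fold change -0.63 ± 0.14, adjusted p = 0.0425). The call passed in only 2 of the 9 fits that left out a library, those without SHNK replicate 1 or 3. It missed the threshold when SHNK replicate 2 or any stressed or non-stressed saline library was dropped (adjusted p between 0.0502 and 0.164), with no filter on low counts (0.0558) and in limma voom (0.081). Sgk1 had 70.0, 68.9 and 63.4 CPM in stressed saline, against 79.4, 94.2 and 84.0 CPM in non-stressed saline libraries. Its log2 fold change was -0.35 ± 0.085 and did not pass in edgeR (adjusted p = 0.0706), though it did in DESeq2 (adjusted p = 0.0131). Nr3c1 had 116, 107 and 111 CPM in stressed saline, against 130, 126 and 123 CPM in non-stressed saline libraries (log2 fold change -0.18 ± 0.072, adjusted p = 0.413). Tsc22d3 averaged 168 ± 18.7 CPM in stressed saline and 193 ± 14.4 CPM in non-stressed saline libraries (SD, n = 3 each; adjusted p = 0.511). Here the groups overlapped. For Fkbp5 the log2 interval ran from -0.49 to 0.17, for Nr3c2 from -0.49 to 0.22 and for Errfi1 from -0.26 to 0.15.

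Several marker lists differed in this comparison as well. Of 13 habenula markers measured 11 rose and 0 fell, with mean log2 CPM from 4.43 to 6.05 in stressed saline and from 2.71 to 3.80 in non-stressed saline libraries. Of 16 ependymal and ciliary markers, which line the ventricle beside this nucleus, 9 rose, with summed levels of 220 to 329 CPM in stressed saline and 123 to 153 CPM in non-stressed saline libraries. Other thalamic markers summed to 3170 to 3250 CPM in stressed saline and 3330 to 3910 CPM in non-stressed saline libraries, with 0 of 15 passing in edgeR (9 lower and 0 higher at unadjusted p under 0.05). Of 16 astrocyte markers 2 rose, of 13 choroid plexus markers 3 rose and of 11 hippocampal markers 2 rose, with 0 lower in each list. Of 5 red cell markers 0 passed (4 lower at unadjusted p under 0.05), with summed levels of 372 to 516 CPM in stressed saline and 497 to 630 CPM in non-stressed saline libraries. With the habenula covariate the log2 fold change of Dusp1 was -0.86 and was not called (adjusted p = 1). The part of the other lists in the fall of Dusp1 was not tested.

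SHNK against non-stressed saline asks whether treated, defeated mice differed from mice never defeated. None of the 9 members passed in edgeR, DESeq2 or limma voom (1 at unadjusted p under 0.05, Tsc22d3, higher, against 7.31% of all genes), where edgeR called 0.00550% of all genes in either direction. Log2 fold changes ran from -0.22 to 0.20. Sgk1 averaged 91.6 ± 2.32 CPM in SHNK and 85.8 ± 7.57 CPM in non-stressed saline libraries (SD, n = 3 each), with a log2 interval from -0.09 to 0.28. Dusp1 averaged 68.0 ± 14.4 CPM in SHNK and 64.5 ± 5.61 CPM in non-stressed saline libraries (SD, n = 3 each), with an interval from -0.22 to 0.37. SHNK libraries lay wholly above non-stressed saline libraries for Nr3c1, Tsc22d3 and Errfi1, 3 of 9 members, against 9.83% of all genes. For Nr3c1 the values were 142, 137 and 139 CPM in SHNK and 130, 126 and 123 CPM in non-stressed saline libraries (log2 fold change 0.15 ± 0.072, adjusted p = 0.304). Of 13 habenula markers 7 were lower and 0 higher at unadjusted p under 0.05, with 0 passing in edgeR. Their mean log2 CPM ran from 1.15 to 1.83 in SHNK and from 2.71 to 3.80 in non-stressed saline libraries. Of 16 astrocyte markers 11 were lower and 0 higher at that p, with 0 passing. Their sums were 4810 to 5130 CPM in SHNK and 6140 to 6390 CPM in non-stressed saline libraries. Of 15 other thalamic markers 2 were higher and 0 lower. The part of these lists was not tested.

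**Figure D4:**
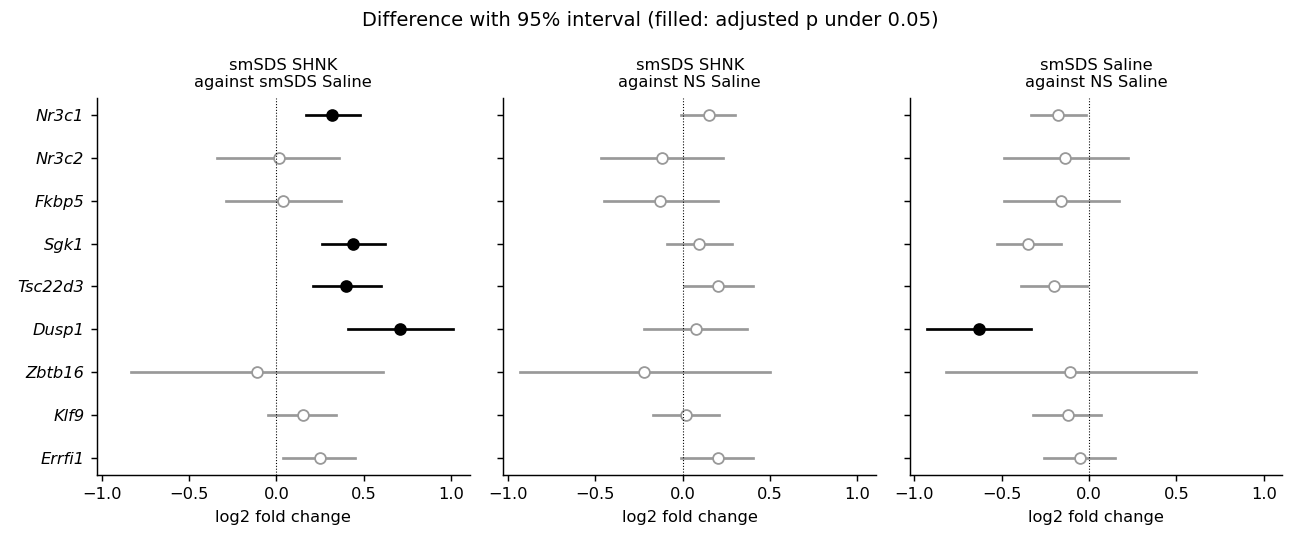
Log2 fold change of each member with its 95% interval in the 3 comparisons (filled points, adjusted p under 0.05 over all tested genes). Nr3c1, Sgk1, Tsc22d3 and Dusp1 were called higher in SHNK than in stressed saline, Dusp1 was called lower in stressed than in non-stressed saline, and no member was called between SHNK and non-stressed saline; the first and last panels share the stressed saline libraries on opposite sides.

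The comparisons with stressed saline share those 3 libraries, on opposite sides, so the values are given side by side and are not independent. Dusp1 had log2 fold changes of 0.71 (SHNK against stressed saline) and -0.63 (stressed against non-stressed saline). In the same order Sgk1 had 0.44 and -0.35, Tsc22d3 0.40 and -0.20, and Nr3c1 0.32 and -0.18.

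Genes around the receptor were read from 7 lists holding 115 tested genes besides the members. In SHNK against stressed saline 6 of them rose and 6 fell, against 2.45% and 3.96% of all genes. In the other comparisons 0 passed in edgeR. At unadjusted p under 0.05 there were 7 higher and 14 lower in SHNK against non-stressed saline (DESeq2 called 9, limma voom 0), and 4 higher and 4 lower in stressed against non-stressed saline (DESeq2 called 2, limma voom 0). Over all 18194 tested genes, 3338 reached that p in SHNK against non-stressed saline (1330 of them higher), and DESeq2 called 994. The numbers in stressed against non-stressed saline were 1720 and 472.

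Chaperones that fold the receptor and keep it ready for hormone made up the largest group of rises in SHNK, with 4 of 18 higher, 0 lower and a median log2 fold change of 0.11, against -0.0091 over all tested genes. Hsp90aa1, the inducible cytosolic HSP90, averaged 1520 CPM in SHNK and 1150 CPM in stressed saline libraries (log2 fold change 0.40 ± 0.082, adjusted p = 0.0130). Dnaja1, an HSP40 co-chaperone of HSP70, averaged 556 and 418 CPM in the same order (0.41 ± 0.076, adjusted p = 0.00853). Ppid, the immunophilin cyclophilin 40, which competes with Fkbp5 for HSP90, rose by 0.42 ± 0.097 (adjusted p = 0.0221), and the constitutive HSP70 Hspa8 by 0.24 ± 0.068 (adjusted p = 0.0495). Dnaja1 passed in 8 of 9 fits that left out a library (not without SHNK replicate 3, adjusted p = 0.0531), Hsp90aa1 in 6, Ppid in 5 and Hspa8 in 1. With the habenula covariate the log2 fold changes were 0.36 for Hsp90aa1, 0.26 for Dnaja1, 0.36 for Ppid and 0.21 for Hspa8, and none was called. Fkbp4, the co-chaperone that opposes Fkbp5, differed by 0.05 ± 0.070. Against non-stressed saline, 7 of the 18 were higher (7.31% of all genes were) and 0 lower in SHNK at unadjusted p under 0.05, with 0 passing in edgeR. There Dnaja1 differed by 0.38 ± 0.076 and Hsp90aa1 by 0.37 ± 0.082 (DESeq2 adjusted p = 0.00122 and 0.00417). Between stressed and non-stressed saline, Dnaja1 differed by -0.03 ± 0.076 and Hsp90aa1 by -0.04 ± 0.082, and 0 of the 18 reached unadjusted p under 0.05.

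Of 10 genes of steroid handling 0 passed in edgeR in SHNK against stressed saline (1 lower at unadjusted p under 0.05). DESeq2 and limma voom called Srd5a1, an enzyme that reduces steroid hormones, lower (adjusted p = 0.0269 and 0.0292; in edgeR -0.40 ± 0.12, adjusted p = 0.0647). Against non-stressed saline Srd5a1 differed by -0.46 ± 0.12 (adjusted p = 0.0921 in edgeR and 0.018 in DESeq2). Hsd11b1, which regenerates corticosterone inside cells, averaged 33.9 CPM in SHNK, 35.1 CPM in stressed saline and 39.0 CPM in non-stressed saline libraries (SHNK against non-stressed saline, edgeR adjusted p = 0.442).

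Of 42 other genes that glucocorticoids induce, 1 rose and 2 fell in SHNK against stressed saline, shares near those of all genes (2.45% higher and 3.96% lower), and the median log2 fold change was -0.075. Rasd1, the dexamethasone-induced Ras protein, averaged 186 CPM in SHNK and 131 CPM in stressed saline libraries (0.51 ± 0.088, adjusted p = 0.00666), and passed in all 9 fits that left out a library. With the habenula covariate its log2 fold change was 0.021. Map3k6, a MAP kinase kinase kinase, averaged 1.25 CPM in SHNK and 6.37 CPM in stressed saline libraries (-2.34 ± 0.44, adjusted p = 0.00934; 7 of 9 fits), a value of 1.94 with the habenula covariate. Cables1, a regulator of cyclin-dependent kinases, differed by -0.44 ± 0.12 (adjusted p = 0.0433, 3 of 9 fits), and by -0.37 with the habenula covariate. The clock gene Per1 and the metallothionein Mt1, both classical targets, differed by -0.07 ± 0.18 and -0.15 ± 0.13; they were picked after their values were seen.

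On the list of genes that glucocorticoids repress, 1 of 10 tested rose and 1 fell. Jun, a subunit of AP-1, which the receptor opposes, averaged 67.3 CPM in SHNK and 53.6 CPM in stressed saline libraries (0.33 ± 0.084, adjusted p = 0.0350; 3 of 9 fits). Icam1, an adhesion molecule of inflamed vessels, averaged 1.40 and 2.54 CPM in the same order (-0.86 ± 0.24, adjusted p = 0.0466; 2 of 9 fits). Of 11 genes of the SGK1 pathway and its sodium channel targets, 2 fell. Foxo1, a transcription factor that SGK1 inactivates by phosphorylation, averaged 25.8 CPM in SHNK and 34.4 CPM in stressed saline libraries (-0.41 ± 0.10, adjusted p = 0.0316; 5 of 9 fits). Scnn1a, a subunit of the epithelial sodium channel, averaged 0.911 CPM in SHNK and 2.37 CPM in stressed saline libraries (-1.38 ± 0.28, adjusted p = 0.0127, 6 of 9 fits). With the habenula covariate the log2 fold changes were 0.28 for Scnn1a, -0.62 for Foxo1, 0.55 for Jun and -0.22 for Icam1, and none was called.

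Peptides and receptors of the stress axis averaged from 0.42 CPM (Ucn) to 24.3 CPM (Crhbp) in SHNK libraries. In edgeR 0 of 9 tested passed in any comparison (0 at unadjusted p under 0.05). Crh, the hypothalamic hormone that starts the axis, averaged 4.21 CPM in stressed saline and 6.18 CPM in non-stressed saline libraries (-0.55 ± 0.26, adjusted p = 0.530). Avp averaged 2.88 CPM in SHNK, 1.96 CPM in stressed saline and 3.61 CPM in non-stressed saline libraries.

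**Figure D5:**
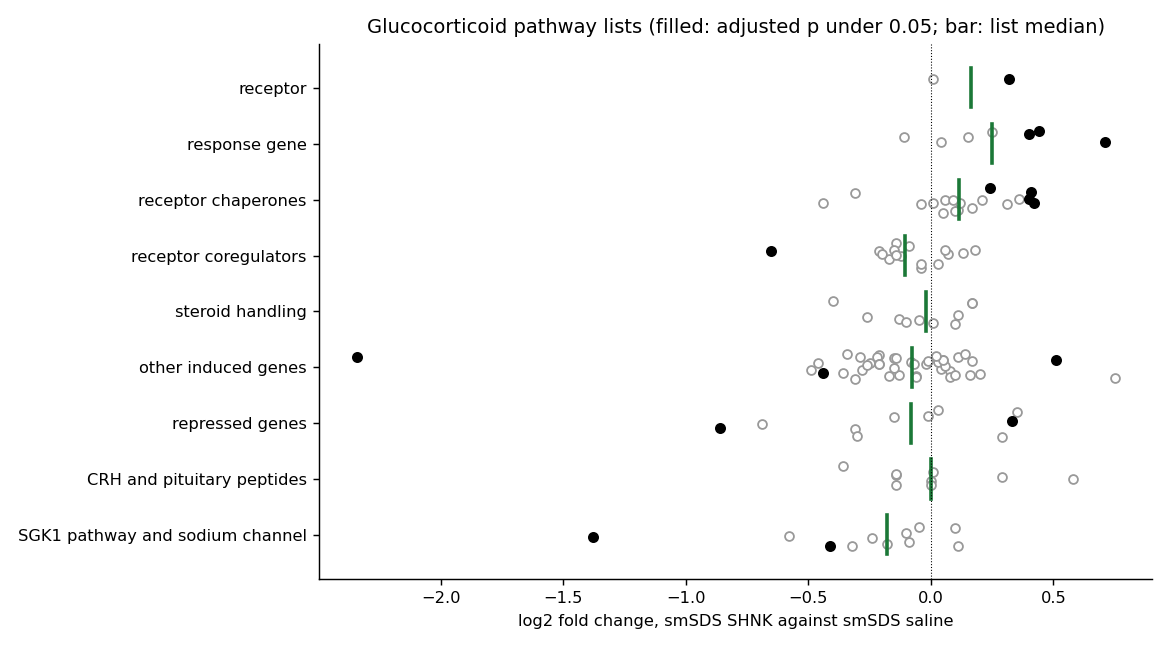
Log2 fold change in SHNK against stressed saline of every tested gene on 9 lists, the members being the top 2 rows (filled points, adjusted p under 0.05; bars, list medians; vertical scatter carries no value). Response genes and chaperones lay mostly above 0, with calls only above it, while the SGK1 pathway had calls only below it.

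To place the 4 called members among other transcripts, the genes with the most similar profile over the 9 libraries were taken by Pearson's r of log2 CPM. The points share group and depth, so r is given as a description. Nr3c1 was most like Syt1 (r = 0.969), Plekhg1 (0.967) and Htr2c (0.962), among them a synaptic vesicle calcium sensor, a member of the list of other thalamic markers and a serotonin receptor. Sgk1 was most like Hmces (0.967), Nrbf2 (0.960) and Klhl11 (0.952). Tsc22d3 was most like Ubac1 (0.968), Trim40 (0.962) and Ciart (0.955), the last a repressor of the circadian clock. Dusp1 was most like Il1r1 (0.958), the interleukin-1 receptor, Tarsl2 (0.914) and the sodium channel Scn8a (0.910). These 12 genes were all different, and each member was compared with 12513 genes.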

How the data were processed

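The authors deposited whole-number read counts per gene symbol, with no further normalization, in 9 libraries. Per the labels' protocols, 100 ng of total RNA entered SMARTer Ultra low RNA and TruSeq libraries. HISAT2, StringTie and Trimmomatic 0.38 are named in the submitters' processing notes, as are mm10 and GRCm38, with no roles. Whether counting used strand is not stated there, so reads of overlapping antisense genes cannot be told apart. No gene in the table has a count under 1.

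Groups came from the labels. filterByExpr (minimum count 10, total 15) kept 18194 genes. Counts were scaled by TMM and fitted over the 3 groups with edgeR 4.0.16 (glmQLFit and glmQLFTest, R 4.3.3), adjusted by Benjamini-Hochberg over all tested genes, threshold 0.05. CPM use TMM-scaled totals, and log2 CPM a prior count of 2. The pipeline was tested on simulated data. Alternatives used DESeq2 1.42.0, limma 3.58.1 voom, other scalings, filters, covariates and groups, and left out each library. Lengths came from GENCODE M21.

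The members and lists were chosen with earlier results of these data known. Named were the members, called genes per list (otherwise the 2 of smallest p), the 3 most correlated genes per member, of which those of the 4 called members are given, and each marker list's most abundant gene. Within groups, libraries differed by more than sampling noise. The result of 1 called list gene is not reported here.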

Additional observations from a re-analysis of the deposited data

How the results depend on the processing

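Of 485 values of members under the 18 alternatives, 439 kept their direction and side of the threshold, 24 lost the call, 1 gained it and 21 changed sign. Leaving out 1 library gave 40 to 306 genes called in stressed against non-stressed saline (213 with all libraries), 176 to 1385 in SHNK against stressed saline (1167) and 0 to 749 in SHNK against non-stressed saline (1), with 0 to 1, 0 to 4 and 0 members called. Over such fits, values that changed sign ran in SHNK against stressed saline from -0.056 to 0.16 for Fkbp5, -0.11 to 0.12 for Nr3c2 and -0.28 to 0.069 for Zbtb16. In SHNK against non-stressed saline they ran from -0.02 to 0.24 for Dusp1, -0.21 to 0.009 for Fkbp5, -0.049 to 0.063 for Klf9 and -0.57 to 0.008 for Zbtb16, and in stressed against non-stressed saline from -0.46 to 0.12 for Zbtb16. For stressed against non-stressed saline DESeq2 called 472 genes and 2 members, limma voom 102 and 0, and the habenula covariate 0 and 0 (775 genes at unadjusted p under 0.05), while no filter left 0 members. For SHNK against stressed saline DESeq2 called 2005 genes, limma voom 2377 and the habenula covariate 1 gene and 0 members. For SHNK against non-stressed saline DESeq2 called 994 genes, the fit of only those groups 9, and no filter, the 1 CPM filter and upper-quartile scaling 0 each. Signs changed with the habenula covariate in stressed against non-stressed saline for Errfi1 (0.18), Crh (0.022), Icam1 (-0.068), Map3k6 (-0.59) and Ndrg1 (0.072), in SHNK against stressed saline for Errfi1 (-0.18), Nr3c2 (-0.072), Zbtb16 (0.009), Crhr1 (1.09), Map3k6 (1.94), Scnn1a (0.28) and Tspo (0.93), and in SHNK against non-stressed saline for Klf9 (-0.039) and Crhbp (-0.084). With limma voom they changed for Fkbp5 (-0.05, SHNK against stressed saline) and Zbtb16 (0.046, stressed against non-stressed saline). The causes were not tested. Replicate numbers are shared between groups, but same-numbered libraries deviated together with r of only -0.1 to 0.106 and did not all correlate best with their own number, so the numbers were not taken as pairs. The replicate block gave 177, 878 and 6 genes in the order above and called the same members, while the calls of Cables1, Hspa8, Icam1 and Jun missed the threshold (adjusted p from 0.0502 to 0.0865).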
